A study of Drosophila melanogaster with 63 samples.

Results

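At 2 h after egg laying, wild type Drosophila melanogaster embryos held a set of transcripts that were at least 2-fold lower at 3 h, relative to a common reference, and 93 such genes are described here. They are 93 of the 9292 genes with a name on the arrays. They were selected on the wild type arrays themselves. Array rows of a gene were averaged, and a gene was taken where the mean log2 ratio of the 3 wild type arrays at 3 h minus that of the 3 at 2 h was -1 or less. This difference is called the wild type step below, and it is given as a description, without a test. In all, 101 named genes met the threshold, and 8 of them were set aside by name (term, Sry-alpha, bnk, halo, zen, plu, Elba2 and Elba3). Over all 12424 features of the arrays, named or not, 128 met it (1.03%), a share that the rule fixes and from which nothing is read.

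These hours lie in the maternal-to-zygotic transition. The egg is loaded by the mother with transcripts that run the first nuclear divisions, meiosis, the piRNA pathway of the germ line and housekeeping functions such as protein turnover. Many of these are cleared while the embryo's own genome is switched on, and a wave of early zygotic genes is itself transcribed for only a short time around the formation of cells. A fall between these hours can therefore concern maternal messages as well as short-lived zygotic ones, and total RNA does not separate the 2 sources.

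Embryos were wild type, mutant for even skipped (eve) or mutant for fushi tarazu (ftz). The products of both genes are homeodomain transcription factors of the pair-rule class, which set up segments. The mutant stocks carried GFP balancer chromosomes, so that embryos could be sorted by genotype. The labels name the mutated gene, with no allele and no wild type strain. Each genotype was sampled at 2, 3, 6, 7, 8, 9 and 10 h after egg laying on 3 arrays a time, 63 arrays in 21 groups. Total RNA of the sample was labelled with Cy3, and a reference collected over 0 to 22 h of embryogenesis with Cy5. Each value is a log2 ratio on 1 array, so levels can be set side by side for a gene but not between genes. Whole embryos were used, so that fewer cells of a type and less RNA per cell cannot be told apart.

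The ratio is read as sample over reference, which is likely but not stated in the labels. It rests on the muscle markers, whose median lay below 0 on 63 of 63 arrays (-2.35 to -0.934), and on late cuticle markers, below 0 on 61 of 63 (-1.74 to 0.0659). Replicate arrays of a group correlated over features with r between 0.510 and 0.953. At 2 h the eve transcript was lower in eve mutants (-1.20 ± 0.14, SD, n = 3) than in wild type (0.51 ± 0.18). On the arrays labelled eve at 3 h it was not lower (0.17 ± 0.19 against -0.04 ± 0.14 in wild type), so every result on the eve step rests on arrays whose label this gene does not bear out. The ftz transcript stood at 0.67 ± 0.12 in ftz mutants and 0.82 ± 0.03 in wild type at 2 h, and at 0.04 ± 0.24 and 0.26 ± 0.06 at 3 h, where the arrays of both groups overlapped. It was lower on the eve arrays at 2 h (-0.32 ± 0.15). The ftz transcript was thus a little lower in ftz mutants at 2 h, without overlap, and did not separate the groups at 3 h, so each result on ftz mutants below rests on the labels and not on this gene.

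Slide numbers in the sample titles put all 6 ftz arrays at 2 h and 3 h in a single run of numbers. Some numbers recur, such as 64 on an eve array at 6 h and on an ftz array at 3 h. A number thus does not name 1 slide, and whether a run is a batch is not said in the labels. The eve arrays at 2 h were slides 59 to 61 and those at 3 h slides 94 to 96, so slide run and time cannot be told apart for eve. In wild type, slides 70, 71 and 9 held the 2 h samples and slides 6 to 8 the 3 h samples. With slides 6 to 9 alone, which hold 1 array at 2 h and 3 at 3 h, 80 of the 93 genes had a step of -1 or less. The rule used these same arrays, so this count is a description and does not test the slide run. The second eve array at 2 h stood apart, with r of 0.661 and 0.669 to the other 2 arrays of its group, which correlated with each other at 0.861. Whether replicates came from separate collections of embryos is not said in the labels, so a p-value here reflects the spread of these arrays, which may be technical, and their number limits the precision.

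The wild type steps of the 93 genes ran from -2.96 to -1.002 with a median of -1.20, against a median of 0.02 over all features. Of these, 20 were at -1.5 or less and 5 at -2 or less. The largest was CG14915, which stood at 2.78, 2.13 and 2.06 on the 3 arrays at 2 h and at -0.81, -0.60 and -0.49 at 3 h, a 7.78-fold difference. Its highest value is the top of the scale shared by all arrays, so that array may understate it. STUB1, which encodes an E3 ubiquitin ligase that works with chaperones, stood at 0.27, 0.43 and 0.25 and then at -2.35, -2.95 and -1.59, 6.13-fold apart. The gene bard went from 1.91, 1.44 and 1.29 to -1.14, -0.78 and -1.02. In all 3 genes both sets of arrays lay far apart, and the same absence of overlap held for all 93 genes, as the rule makes likely.

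CG15876 stood at 1.12, 1.33 and 1.34 at 2 h and at -1.27, -0.61 and -1.40 at 3 h, and CG7271 at 1.17, 1.17 and 1.24 and then -0.41, -1.36 and -0.84. The next steps were those of CG8507 (-1.995), Prosalpha4 (-1.85), CG13000 (-1.68), Tl (-1.64) and Nin (-1.62). They were followed by CG10444, Dronc, CG32473, Pxt, CG4911, Bro, hrg, CG13711, Edc3 and ERp60, from -1.62 to -1.51. At the other end, Echs1 (-1.01), Usp10 (-1.01), mael (-1.01), PRL-1 (-1.003) and CG8379 (-1.002) were just inside the threshold. Just outside it were Rh50 (-0.996), Crag (-0.994), Prosbeta3 (-0.993), AP-1sigma (-0.991) and fs(1)N (-0.987). The border falls in a continuous run of values. Of the 93 genes, 5 were measured by 2 rows each (Ac78C, BicD, CROT, EMC2A and gus), and both rows of each were lower at 3 h.

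**Figure D1:**
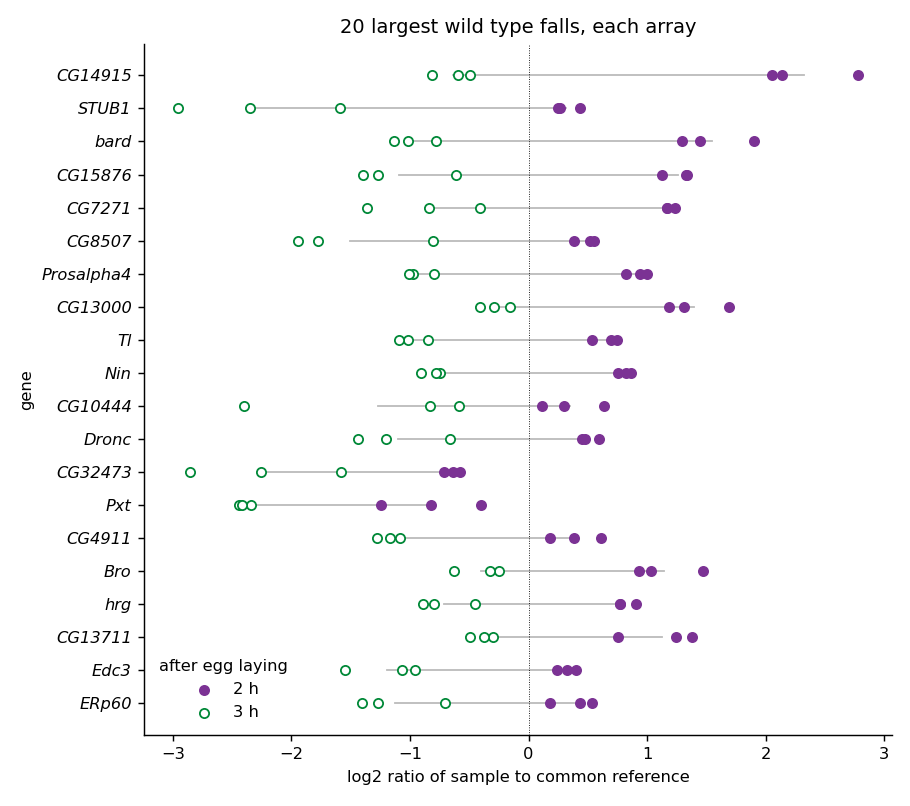
The 20 genes with the largest wild type steps, from CG14915 (-2.96) at the top to ERp60 (-1.51). The horizontal axis gives log2 ratios to the reference, each point is 1 wild type array (filled at 2 h, open at 3 h, 3 of each), and the grey line joins the means; open and filled points do not overlap for any gene, which the rule makes likely.

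After 3 h the set as a whole stayed low in wild type. Its median level was 0.62 at 2 h, -0.68 at 3 h, -0.78 at 6 h and -0.67 at 10 h. The eve mutants had 0.31 at 2 h, -0.15 at 3 h and -0.70 at 6 h, and the ftz mutants 0.35, -0.61 and -0.67. The medians of single eve arrays were -0.01, 0.58 and 0.29 at 2 h and between -0.16 and -0.11 at 3 h. At 3 h the eve arrays thus lay between the early and the late levels of all 3 genotypes, and from 6 h on the medians of the genotypes ran close together.

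**Figure D2:**
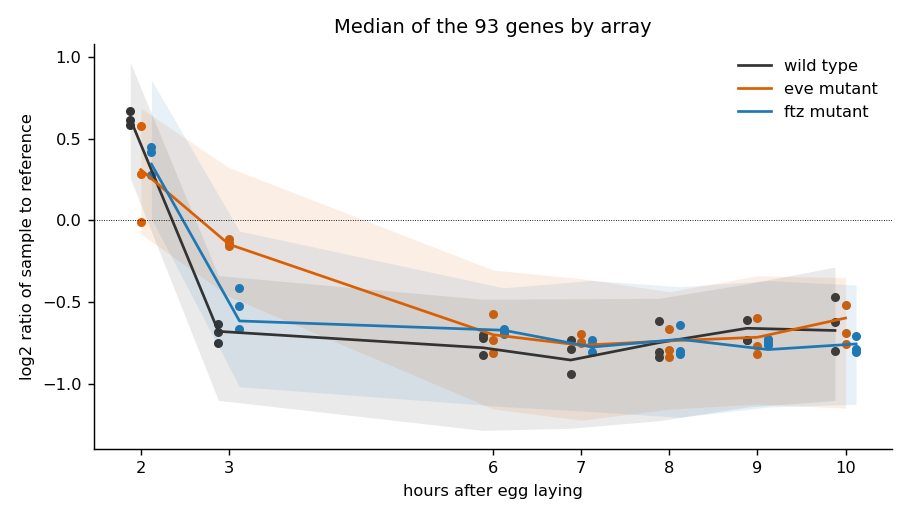
Median log2 ratio of the 93 genes against hours after egg laying, for wild type (black), eve mutants (orange) and ftz mutants (blue), drawn with small offsets in time. Points are single arrays, lines join the medians of the group means, and shading spans the middle part of the genes from the 25th to the 75th percentile; at 3 h the median is -0.15 in eve against -0.68 in wild type and -0.61 in ftz.

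The arrays labelled ftz were not used by the rule. Of the 93 genes, 68 fell between 2 h and 3 h in ftz mutants and none rose, by limma's moderated test with Benjamini-Hochberg adjustment over all 12424 features at a threshold of 0.05. Over all features 4.2% were called lower and 4.72% higher, whereas 73.1% of the 93 were lower. All 93 had a negative difference, with a median of -0.91 against 0.00 over all features. In 87 genes (93.5%) the 3 arrays at 3 h lay below the 3 at 2 h, against 15.1% of all features, and 40 genes (43%) were lower by 1 log2 unit or more, against 0.901%. Since the genes were chosen with earlier results of these data known, these shares are set beside the background as a description. The 25 genes that did not pass had differences between -1.20 and -0.03.

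CG14915 stood at 2.78, 2.44 and 2.44 in ftz mutants at 2 h and at -1.14, -0.72 and 1.91 at 3 h. It fell by 2.53 (SE 0.49, limma adjusted p = 0.000288), although 1 array at 3 h remained high and the fit to the arrays of these 2 groups alone gave an adjusted p of 0.0639. The gene bard fell by 2.31 (SE 0.41, limma adjusted p = 9.46e-05), and here too the third array at 3 h was high (0.29 against -1.62 and -0.72). CG15876 showed tighter values at 3 h, -0.89, -0.69 and -0.54, after 1.97, 1.97 and 0.72 at 2 h, and fell by 2.26 (SE 0.23, limma adjusted p = 8.75e-10). CG13711 went from 1.81, 1.72 and 1.22 to -0.42, -0.47 and -0.41, so that its arrays at 3 h lay close together.

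STUB1 stood at 0.35, 0.55 and 0.14 at 2 h and at -2.10, -1.07 and -1.75 at 3 h in ftz mutants, a fall of 1.98 (SE 0.32, limma adjusted p = 2.44e-05). Then came CG8507 (-1.84), CG32473 (-1.77) and CG6885 (-1.75). Bro, the partner subunit of the Runt family of transcription factors, went from 1.53, 1.91 and 1.04 to -0.22, -0.43 and 0.17, close to its wild type change from 0.93, 1.03 and 1.47 to -0.63, -0.25 and -0.33. CG14915, STUB1, bard and CG15876, which had the largest wild type steps, were also among the largest falls in ftz mutants.

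In eve mutants fewer of the genes were called. Of the 93, 33 fell between 2 h and the arrays labelled 3 h, 1 rose and 59 did not pass. Over all features 10.6% were called lower and 13% higher, a larger share of the features than in the ftz step. The median of the 93 was -0.38 against 0.00 over all features, and 75 had a negative difference. The 3 h arrays lay below all 2 h arrays in 42 genes (45.2%), against 22.4% of all features, and 14 genes (15.1%) were lower by 1 log2 unit or more, against 1.22%. Without the second eve array at 2 h, 20.4% of the 93 were called in place of 36.6%, with 17 lower and 2 higher. Without the second array at 3 h the share was 22.6%, and without the third at 2 h 23.7%. With slide runs as a term it was 7.53%, a fit in which only 1 other array shares the run of the eve 3 h arrays.

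CG11700, for which the RefSeq annotation gives the synonym poly-ub, stood at 1.16, 1.06 and 1.30 in eve mutants at 2 h and at -0.98, -0.46 and -1.04 at 3 h, a fall of 2.00 (SE 0.15, limma adjusted p = 3.78e-14). Its level at 2 h was above that of wild type (-0.24, -0.52 and -0.28) on every array. Whether its probe also binds other ubiquitin transcripts, which are nearly alike in sequence, was not tested. Mdh1, the cytosolic malate dehydrogenase, fell by 1.36 (SE 0.28, limma adjusted p = 0.000272), from -0.05, 0.58 and 0.70 to -1.10, -0.996 and -0.76. CG3107 fell by 1.25. Tnpo, a transportin that carries proteins into the nucleus, fell by 1.22 with no overlap, from 0.38, 0.35 and 0.44 to -0.67, -0.82 and -0.995. CNPYb also fell by 1.22. With slide runs as a term the difference for Tnpo was -0.57, and its adjusted p was 0.259.

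Of the 34 eve calls, 16 held when each of the 6 eve arrays was left out in turn and 18 were lost without at least 1 of them, and without the second array at 2 h 18 of the 34 held. CtsK1 stood at -3.50, 0.95 and -2.69 at 2 h and -3.32, -3.73 and -2.62 at 3 h, and its fall of 1.48 (SE 0.51, limma adjusted p = 0.0267) was -0.13 without the second array at 2 h (limma adjusted p = 0.848). CG7271 fell by 1.54, with -1.09 and an adjusted p of 0.0685 without the third array at 2 h. Marf1, a regulator of RNAs in the oocyte, fell by 1.14 from -0.82, 0.04 and -0.41 to -1.37, -1.51 and -1.74, but had 0.17 with slide runs as a term. The single gene that rose was Mabi, from 0.22, 0.57 and 0.64 to 1.11, 1.77 and 1.47 (0.98, SE 0.26, limma adjusted p = 0.00504), and with slide runs as a term its adjusted p was 0.46. In wild type Mabi had gone from 1.27, 1.17 and 1.17 to 0.26, 0.23 and 0.05.

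The second eve array at 2 h was high for several transcripts of the egg. Pxt, a cyclooxygenase-like peroxidase that acts in ovarian follicles, stood at -1.56, 0.67 and -2.20 on the eve arrays at 2 h. BicD, the adaptor that ties localized RNAs to dynein, stood at -1.09, 0.49 and -1.19. BigH1, the embryonic linker histone, stood at -1.75, 0.69 and -1.45. Among markers of other cell types, 4 of 5 measured germ line markers also fell in the eve step and 1 of 5 in the ftz step. Of all features 10.6% and 4.2% fell. The median of these markers was -0.21 in eve at 2 h and -1.35 at 3 h, with -0.66 and -0.87 in ftz. At 2 h it ran from -0.23 to 0.09 over the eve arrays and from -0.78 to -0.58 over the ftz arrays, so it was not high on the second eve array alone. The part of these differences in the eve step of the 93 genes was not tested.

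The difference between the steps of both mutants was tested as an interaction. In 29 of the 93 genes the eve step was higher, that is less negative, than the ftz step, and in 1 it was lower. Over all features 8.6% were called higher and 7.93% lower. The median of the difference over the 93 genes was 0.51, against 0.01 over all features. Lower in both mutants were 23 genes, of which 3 differed between them (Dronc, CG8219 and CG8379). A further 45 were lower in ftz and not called in eve, and the interaction was called for 25 of these. Only 10 were lower in eve and not called in ftz, with the interaction called for CG11700, and 14 were called in neither mutant. Across the 93 genes the steps of eve and ftz had a correlation of -0.04, as they did over all features at 0.06, a description over genes that share the same 12 arrays. Without the first ftz array at 3 h 24.7% of the 93 were called and with slide runs as a term 20.4%, in place of 32.3%, and with array weights 54.8%.

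Several of the largest wild type steps were among those that differed. CG14915 stood at 1, 2.06 and 1.42 in eve at 2 h and at 1.65, 1.34 and 1.13 at 3 h, so that its arrays overlapped, and the difference of steps was 2.41 (SE 0.69, limma adjusted p = 0.0116). Without the first ftz array at 3 h that difference was 1.84 with an adjusted p of 0.077. CG15876 likewise overlapped in eve, with 0.66, 1.17 and 1.10 and then 0.85, 0.95 and 0.88, and its difference of steps was 2.18 (SE 0.32, limma adjusted p = 4.12e-06). STUB1 overlapped as well, from -0.52, 0.65 and -0.28 to -0.30, -0.11 and -0.33, with a difference of 1.78, which had an adjusted p of 0.0987 with slide runs as a term.

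CG15382 moved the other way in eve, from -0.07, -0.17 and -0.23 to 0.23, 0.31 and 0.20, but the eve step itself was not called. In ftz it went from 1.40, 1.11 and 0.81 to -0.46, -0.37 and -0.63, and the steps differed by 2.00 (SE 0.29, limma adjusted p = 2.41e-06). CG11263 gave a like picture, with 0.55, 0.81 and 0.51 and then 1.05, 1.51 and 1.30 in eve against 1.34, 1.41 and 1.13 and then 0.06, 0.20 and 0.23 in ftz. CG11700 was the exception in the opposite direction, with ftz values of 0.11, -0.14 and -0.10 at 2 h and -0.12, -0.08 and 0.00 at 3 h and a difference of steps of -1.97 (SE 0.22, limma adjusted p = 5.68e-09).

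**Figure D3:**
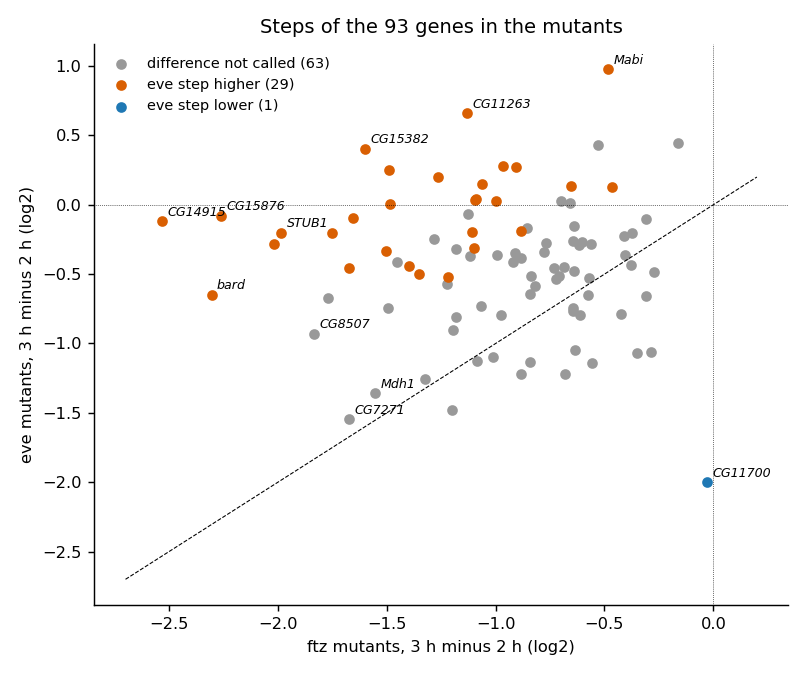
Difference between 3 h and 2 h (log2) in ftz mutants on the horizontal axis and in eve mutants on the vertical axis, 1 point for each of the 93 genes, coloured by the limma call of the interaction. All points lie left of 0, 75 lie below 0, and the 29 genes with a higher step in eve lie toward the upper left, while CG11700 lies alone at -0.03 in ftz and -1.999 in eve.

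The interaction draws on the levels at 2 h and at 3 h. At 2 h, eve levels were called below ftz levels for 15 of the 93 (16.1%) and above for 7 (7.53%). Of all features, 11.5% were lower and 11.1% higher. Taken over both directions, the shares at 2 h lie near the background and do not set the 93 apart. At 3 h only CG11700 was lower in eve, and 28 genes (30.1%) were higher, where 2.34% and 3.01% of all features were called. At 2 h the largest differences were CG6885 (-1.28), CG15382 (-1.26), CG13000 (-1.25), CG9231 (-1.07) and CG13711 (-1.002) on the lower side. CG6885 stood at 0.60, 0.79 and 0.58 in eve and at 1.72, 2.24 and 1.86 in ftz, with wild type at 1.72, 1.42 and 1.81. Higher in eve were CG11700 (1.21), Nrt (0.86), CNPYb (0.84), hrg (0.74) and Tl (0.73).

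Tl encodes Toll, the maternally supplied receptor of the dorsoventral axis. At 2 h it stood at 0.53, 0.69 and 0.75 in wild type, -0.22, 0.40 and -0.11 in eve and -0.14, -0.96 and -1.02 in ftz, so the lowest eve array lay below the highest ftz array. Without the second eve array the difference was 0.54 with an adjusted p of 0.13. At 3 h the largest differences were CG15876 (1.60), STUB1 (1.39), Mabi (1.34), IntS3 (1.26) and CG11263 (1.12). IntS3, a subunit of the Integrator complex that cleaves nascent RNAs, stood at -0.53, -0.63 and -1.04 in eve and at -2.13, -1.65 and -2.21 in ftz. STUB1 was not called without the first ftz array at 3 h (adjusted p 0.0836).

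The count at 3 h moved with single arrays. It was 19.4%, 16.1% and 17.2% of the 93 genes when each eve array at 3 h was left out in turn, and 11.8% without the first ftz array, against 31.2% with all of them. With array weights it was 57%, and with slide runs as a term 6.45%, where CG11700 had 0.08 in place of -0.76.

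The counts by role below are a description. Of all 93 genes, 73.1% were called lower in ftz and 35.5% in eve mutants, against 4.2% and 10.6% of all features. Whether a role group differs from the rest of the 93 was not tested. By role, grouped after the values were seen, the largest group with a single known function was the proteasome. Of its 20S core, the barrel that degrades ubiquitin-tagged proteins, 6 of 11 measured subunits are among the 93, and their wild type steps are negative by the rule. Prosalpha3 (-0.98), Prosbeta2 (-0.23), Prosbeta3 (-0.99), Prosbeta4 (-0.82) and Prosbeta7 (-0.67), outside the 93, had negative steps too. Of all features 1.03% met the threshold, and the median step was 0.02. The rule used these same values, so the counts for core and cap are a description. None of 13 measured subunits of the regulatory cap is among the 93 (-0.60 to 0.47). Prosalpha4 stood at 0.94, 0.83 and 0.996 in wild type at 2 h and at -0.98, -0.79 and -1.01 at 3 h, and Prosalpha2 at 0.76, 1.06 and 0.80 and then -0.36, -0.46 and -0.39. Of the 6, Prosalpha2, Prosalpha5 and Prosalpha6 fell in eve mutants and Prosalpha2, Prosalpha4, Prosalpha5 and Prosalpha7 in ftz mutants, and the interaction was called for none. In eve only Prosalpha2 of these kept its call without each array in turn.

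The 9 genes of egg and germ line were twe, spn-E, mael, gus, BigH1, BicD, Tl, Marf1 and Pxt. Their wild type steps ran from -1.64 to -1.01, and 3 of them (Tl, Marf1 and Pxt) fell in eve and 4 in ftz mutants. Of these 3, Pxt had -0.25 without the second eve array at 2 h (limma adjusted p = 0.647), in place of -1.10, and Marf1 had its sign reversed with slide runs as a term. The gene twe, which encodes the meiotic Cdc25 phosphatase, stood at -0.01, 0.08 and 0.12 in wild type at 2 h and at -1.67, -0.67 and -0.83 at 3 h. In ftz it fell by 1.18 (SE 0.40, limma adjusted p = 0.0497), close to the threshold. Of the piRNA pathway genes, mael fell by 1.18 in ftz mutants and had -0.32 in eve, while the RNA helicase gene spn-E had -0.41 in ftz and -0.23 in eve and passed in neither. BigH1 fell by 1.12 in ftz mutants (limma adjusted p = 0.0486), and gus, whose product binds Vasa, by 0.71.

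Nin (ninein) and Cen (centrocortin) are centrosome proteins of the early divisions, and both fell in both mutants by the calls. Without the second eve array at 2 h, Cen had -0.45 in eve (limma adjusted p = 0.324), in place of -0.75. Nin stood at 0.75, 0.87 and 0.82 in wild type at 2 h and at -0.75, -0.78 and -0.91 at 3 h. It fell by 0.90 in eve and by 1.20 in ftz mutants. The spindle gene msd1, a subunit of augmin, had 0.45 in eve and -0.16 in ftz, and neither passed. Of 7 metabolic enzymes (Mdh1, Eno, Echs1, Scsalpha1, Pdk, CROT and Cbs), 5 fell in eve and 6 in ftz mutants, and the interaction was called for none. Of the 5 in eve, Mdh1 alone kept its call without each array in turn. Eno, the enolase of glycolysis, passed in neither, with -0.80 and -0.61.

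Of 8 genes of the endoplasmic reticulum and of vesicle traffic, 6 fell in ftz mutants and 1, ERp60, in eve mutants. ERp60, a protein disulfide isomerase, fell by 0.79 in eve, and had -0.42 in ftz without passing. Among 5 genes of RNA processing and decay, hrg, the canonical poly(A) polymerase, fell in both mutants (by 1.13 in eve and 1.09 in ftz). Edc3, an activator of decapping, and IntS3 fell in ftz mutants only by the calls, and here the interaction was called, at 1.21 for each. Trf4-2 and Rnmt passed in neither.

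All 5 genes of signalling and cell death (Dronc, Sting, PRL-1, Ac78C and lic) fell in ftz mutants and 2 in eve, and the interaction was called for 4, all but Sting. Dronc, the initiator caspase, stood at 0.45, 0.60 and 0.48 in wild type at 2 h and at -1.44, -0.66 and -1.21 at 3 h. It fell by 0.44 in eve and by 1.40 in ftz mutants. In eve it had -0.34 without the second array at 2 h (limma adjusted p = 0.199), and Sting had -0.76 (0.068). Ac78C, an adenylyl cyclase gene, stood at 1.46, 1.24 and 1.32 in wild type at 2 h but at -0.08, 0.16 and 0.07 in eve and 0.37, 0.52 and 0.36 in ftz. PRL-1, a phosphatase, likewise had lower values in eve at 2 h, -0.71, -0.50 and -1.12, than in wild type, 0.12, 0.26 and 0.69. In ftz it stood at 0.25, -0.35 and -0.51. The rule favours genes with high wild type values at 2 h, so these comparisons with wild type are a description. Of the ubiquitin pathway, Cul1, the scaffold of SCF ligases, fell by 1.07 in eve and had -0.35 in ftz. Of the pair Bro and Nrt, the adhesion gene Nrt fell by 1.06 in eve and had -0.29 in ftz, and Bro fell in ftz alone by the calls.

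The other 41 genes have no role stated here, and 33 genes in all carry only a CG number. Of these 33, 28 fell in ftz and 10 in eve mutants, and the interaction was called higher for 16 and lower for 1. Of all 93, 73.1% fell in ftz and 35.5% in eve mutants, and the interaction was called higher for 31.2%. Whether the 33 differ from the rest was not tested. Some of them are neighbours in the order of genes of the RefSeq annotation (Release 6 plus ISO1 MT), used here only for order. Pairs with no gene between them were CG15876 and CG13713, CG3107 and gus, and Tnpo and CG8219, and CG7271 lies next to term, which was set aside by name. EMC2A and EMC2B, with 1 gene between them, are related copies of a subunit of the membrane insertion complex, and whether their probes share signal was not tested.

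The first of these pairs belongs to a named series. The annotation gives the synonyms HL1 to HL6 to 6 genes, all measured, and 4 of them are among the 93: CG13713 (HL2), CG15876 (HL3), CG13711 (HL5) and SNCF (HL6). They were looked at together after their values were seen. CG13713 stood at 0.68, 0.70 and 0.58 in wild type at 2 h and at -0.29, -0.95 and -0.06 at 3 h, and SNCF at 1.59, 1.55 and 1.77 and then 0.31, 0.25 and 0.35. In ftz mutants all 6 genes of the series fell, including CG13716 (HL1, -0.64) and CG13712 (HL4, -0.80), whose wild type steps of -0.25 and -0.81 missed the threshold. In eve mutants none of the 6 was called, with differences between -0.41 and 0.28. The interaction was called for 5 of them, from 0.53 to 2.18, and SNCF had 1.04 without passing (limma adjusted p = 0.115). Whether the probes of these genes share signal was not tested.

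**Figure D4:**
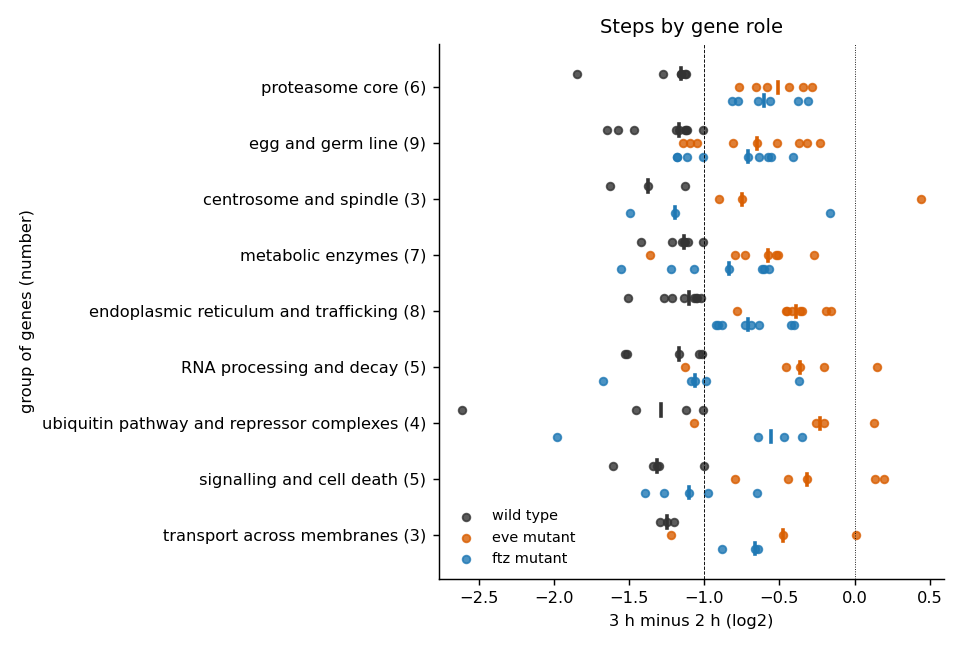
Difference between 3 h and 2 h (log2) by group of genes, with the number of genes in brackets, for wild type (black), eve (orange) and ftz mutants (blue). Each point is a gene and each vertical bar the median of its group; the dashed line marks the threshold of -1 that the wild type values had to meet, and the median of the signalling and cell death genes is -0.31 in eve against -1.10 in ftz.

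Known regulators of the early embryo among the 93 are counted here by list, as a description. Of all features 1.03% met the threshold, so a short list or marker set with no member is not set apart from the background. Sry-alpha, bnk, halo and zen met the threshold but were set aside by name, so they could not be counted. Of lists of pathway genes, which leave out the names set aside, those of gap and terminal genes (10 measured), pair-rule genes (8), zygotic dorsoventral genes (15), the Bearded and Enhancer of split family (14), genome activation factors (8), DNA replication (11), mesoderm invagination (6), heat shock (6), cellularization (3), homeotic and head genes (2) and sex determination (2) contributed none. Mitotic timing contributed twe of 9, germ plasm and pole cells spn-E and mael of 14, and egg activation and maternal cell cycle Tl and BicD of 29. The wild type step had a median of -0.25 over the egg activation list, -0.24 over the germ plasm list, 0.44 over DNA replication and 0.56 over the Bearded list. In ftz mutants 1 of the 29 egg activation genes fell and 2 rose, and in eve mutants 8 fell and 1 rose. Of the 14 germ plasm genes 7 fell in eve mutants, and 2 fell and 1 rose in ftz mutants. Over all features 10.6% fell and 13% rose in eve mutants, and 4.2% fell and 4.72% rose in ftz mutants. No marker of muscle, neurons, cuticle, follicle, haemocytes, germ line or amnioserosa is among the 93.

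The later hours of the time course are independent of the rule. Between 6 h and 10 h in wild type, 12 of the 93 genes rose (12.9%) and 3 fell (3.23%), against 6.63% and 5.98% of all features. Over both directions 16.1% of the 93 were called, which lies near the background and does not set the 93 apart. The median difference was 0.20 against -0.02 over all features. ERp60 rose by 1.46 (SE 0.21, limma adjusted p = 1.15e-06), from -1.26, -0.93 and -1.23 at 6 h to 0.51, 0.10 and 0.36 at 10 h. CG3107 went from -1.38, -1.64 and -1.76 to 0.01, 0.02 and -0.47. CG11700, from -1.12, -0.82 and -0.63 to 0.19, -0.29 and 0.55, and Pdk, a kinase of pyruvate dehydrogenase, each rose by 1.01. In each of these 4 genes the arrays at 10 h lay above those at 6 h.

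Cen was called higher (0.86), but its arrays at 10 h were -0.15, -1.60 and -1.43, and the difference was 0.40 without the first of them (adjusted p 0.453). The 3 genes that fell were CG6885 (-0.76), msd1 (-0.69) and CG14937 (-0.65), and each missed the threshold without 1 array (adjusted p 0.069, 0.0627 and 0.0576). In wild type 46 of the 93 genes stood above their 3 h mean at 10 h, 11 of them by 1 log2 unit or more, and 4 had reached their 2 h mean. These counts share the 3 h arrays with the rule and are a description. With the arrays of 6 h and 10 h alone in the fit, 9.68% of the 93 were called in place of 16.1%.

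**Figure D5:**
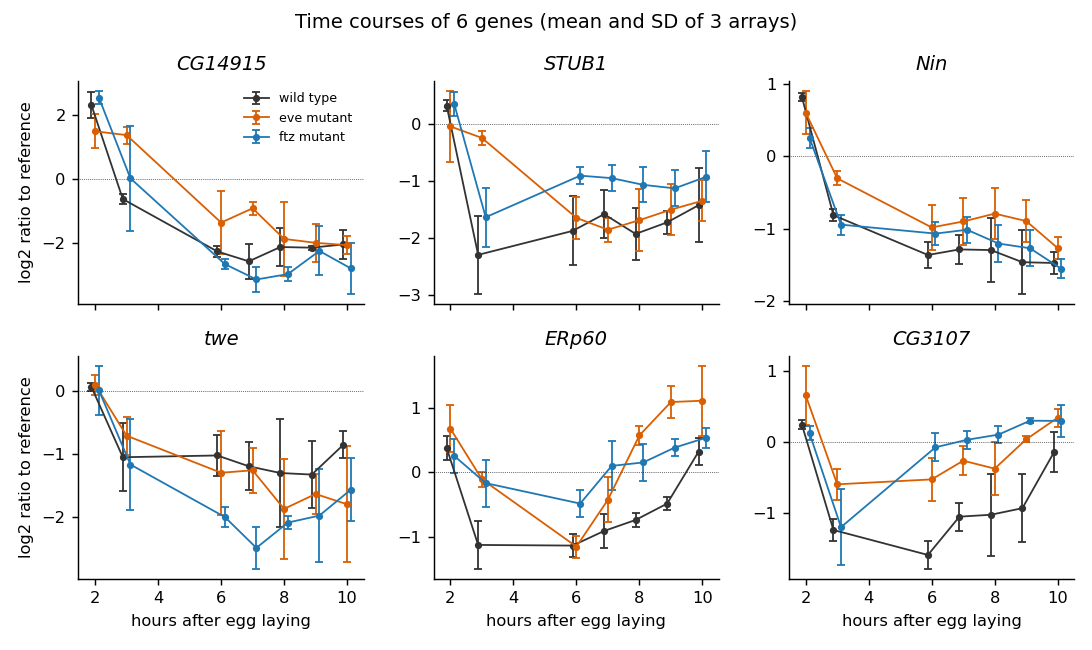
Log2 ratio to the reference against hours after egg laying for 6 genes, in wild type (black), eve (orange) and ftz mutants (blue). Points are means of 3 arrays and bars are SDs. CG14915 stands at 1.37 in eve at 3 h against -0.63 in wild type.

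Over the mean of 6 to 10 h, with 15 arrays a genotype, the mutants were set against wild type. In eve mutants 24 of the 93 genes were higher and 17 lower (25.8% and 18.3%), against 19.6% and 19.8% of all features. In ftz mutants 18 were higher and 27 lower (19.4% and 29.0%), against 20.7% and 19.7%. Over both directions these shares lie near the background and show nothing about the 93 as a set, and both contrasts share the wild type arrays. In ftz mutants the share called, 48.4%, was 25.8% with slide runs as a term. All ftz arrays of these hours lay in the runs of slides 37 to 45 and 6 to 15. Of wild type, only slides 12 (6 h) and 13 (7 h) lay in these runs. Genotype and slide run can thus hardly be told apart in the ftz differences below.

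Single genes differed by larger amounts. Marf1 ranged from -1.08 to -0.05 with a median of -0.43 in eve, from -2.19 to -0.42 with a median of -1.64 in wild type, and from -2.95 to -1.46 with a median of -2.03 in ftz. Against wild type it was higher in eve (0.87, SE 0.13, limma adjusted p = 1.1e-06) and lower in ftz (-0.62). IntS3 was higher in both mutants (0.83 in eve and 0.88 in ftz), with medians of -0.20 in eve, -0.18 in ftz and -1.15 in wild type. ERp60 (0.83 and 0.73) and CG3107 (0.79 and 1.08) were higher in both as well, and Cen was higher in eve (0.77).

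Eno ranged from -1.92 to -0.01 with a median of -0.99 in ftz and from -3.23 to -1.24 with a median of -2.14 in wild type, and it was higher in ftz (1.04, SE 0.14, limma adjusted p = 1.09e-07) and in eve (0.69). Mdh1 was higher in ftz mutants (0.79). On the lower side in ftz stood Sting (-0.96), twe (-0.89), Trf4-2 (-0.87), spn-E (-0.84) and Mabi (-0.65). On the lower side in eve stood mael (-0.60), Mabi (-0.54), Prosalpha2 (-0.53), Prosalpha6 (-0.50) and Sting (-0.46). In eve, spn-E was higher (0.47). With slide runs as a term twe in ftz missed the threshold (adjusted p 0.0574).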

How the data were processed

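The authors deposited a single table of log2 ratios, 1 column for each of 63 arrays, with limma named in the submitters' processing notes; no source used here gives the background correction or filters, and the log base is taken as 2. The deposited values share 1 set of sorted values on all arrays to within 0.000784 and run from -3.74 to 2.78, so they had been quantile normalized, which removes shifts of whole arrays. Of 20000 rows, 13228 held values. Rows with 1 symbol (10096) were averaged per gene and no filter on low values was applied, so all 93 genes were tested.

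One limma 3.58.1 model (R 4.3.3) with a mean for each of 21 groups and 42 residual degrees of freedom gave 8 contrasts, each 2-sided with Benjamini-Hochberg adjustment over 12424 features at 0.05. Contrasts with the 6 wild type arrays of the rule were not tested. The script was tested on simulated data.

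The genes and lists were chosen with earlier results of these data known. Named genes are the 20 largest wild type falls, the largest called differences per contrast (8 for each mutant's step, otherwise 5 a direction), the list members and the 5 genes on either side of the threshold; genes named by role, by position or to show an array that stands apart were added after their values were seen. A planned check of the ratio's direction did not settle it: the cellularization list (3 measured) stood at a median 0.10 (2 h) and 0.11 (10 h) and the muscle list at -1.96 and -1.86. At 3 h the muscle list stood at -1.53, above its level at 10 h, which goes against the direction used. The basis given with the results was added after seeing the data. Alternatives covered the samples in the fit, the rows, the variance model, array weights, slide runs, replicate blocks, a stricter rule and each array left out.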

Additional observations from a re-analysis of the deposited data

Results flagged for a closer look

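The change from 2 h to 3 h differed between eve and ftz mutants, by the interaction term of the limma model (adjusted p under 0.05), in 30 of the 93 genes, 29 of them with the higher step in eve and 1 with the lower. The single genes named for it, as the eve step minus the ftz step, were CG11700 (-1.97, SE 0.22, limma adjusted p = 5.68e-09), CG14915 (2.41, SE 0.69, limma adjusted p = 0.0116), CG15876 (2.18, SE 0.32, limma adjusted p = 4.12e-06), CG15382 (2.00, SE 0.29, limma adjusted p = 2.41e-06), CG11263 (1.79, SE 0.36, limma adjusted p = 0.000345) and STUB1 (1.78, SE 0.46, limma adjusted p = 0.00464). For eve, time cannot be told apart from slide run, and these differences rest on the arrays labelled eve at 3 h, on which the eve transcript was not lower than in wild type.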

How the results depend on the processing

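The results are the percentage of the 93 genes called in each contrast. With slide runs as a term the share was 7.53% for the eve step (36.6% as reported), 20.4% for the difference of steps (32.3%), 6.45% for eve against ftz at 3 h (31.2%) and 25.8% for ftz against wild type over 6 to 10 h (48.4%). With array weights it was 54.8% for the difference of steps and 56.99% for eve against ftz at 3 h, and with the stricter rule (20 genes at -1.5 or less) 50% for each of these. For wild type 6 to 10 h (16.1%) it was 9.68% with its own arrays alone and 10% with the stricter rule. With 1 array left out the shares ran from 20.4% to 48.4% for the eve step, 53.8% to 69.9% for the ftz step (73.1%), 24.7% to 39.8% for the difference, 17.2% to 24.7% and 11.8% to 25.8% for eve against ftz at 2 h (23.7%) and 3 h, 12.9% to 20.4% for wild type 6 to 10 h, and 38.7% to 48.4% and 44.1% to 49.5% for eve (44.1%) and ftz against wild type. Leaving out 1 wild type array gave 96 to 100 genes by the rule, and slides 6 to 9 alone 114. At 2 h and 3 h the last digit of the title code did not pair the arrays. Same-digit pairs had a median r of -0.01 (n = 45, -0.26 to 0.15) and others 0.00 (n = 90). Arrays of 6 to 10 h were not checked for pairing. With the code as a replicate block the shares were 41.9% for the eve step, 72.0% for the ftz step and 40.9% for the difference. For ftz against wild type no block was fitted. Instead, each series of title codes was averaged over 6 to 10 h, which leaves 3 values a genotype. The share was then 26.9%, over 1.5 times below the reported share. Alternatives not given here stayed within 1.5 times of the reported share. With slide runs 2 values of named genes reversed, Marf1 in the eve step (0.17) and CG11700 in eve against ftz at 3 h (0.0795), and over all settings 35 values of named genes kept their direction but missed the threshold, while 633 kept both. The number of arrays, 3 a group, limits the precision.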
